A study of Mus musculus musculus x M. m. domesticus and Mus musculus domesticus and Mus musculus with 12 samples.

Results

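Testis expression was compared between *DxD* and *MxM* males, the F1 offspring of crosses within *Mus musculus domesticus* and within *M. m. musculus*. *DxD* males came from a LEWES/EiJ mother and a WSB/EiJ father, and *MxM* males from a PWK/PhJ mother and a CZECHII/EiJ father. All 4 are wild-derived inbred strains, so every male was outbred between strains and had the X chromosome of LEWES/EiJ or of PWK/PhJ. Each cross was made in 1 direction, with 3 fertile males killed at an age of 60 days. The 6 males were chosen by the cross stated for them, out of 12 in the series. The other 6 were reciprocal hybrids of LEWES/EiJ and PWK/PhJ, 3 fertile *DxM* and 3 sterile *MxD*, and are used below only to give the level beside the species difference. RNA of whole testis from each male was hybridised to 1 Affymetrix mouse genome array. With 1 cross for each species, a species difference and a difference between these strain pairs cannot be told apart. The males are separate animals, and no source used here gives a hybridisation or extraction batch for them.

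A whole adult testis holds germ cells at every step of spermatogenesis and the somatic cells that surround them. Spermatogonia divide by mitosis, spermatocytes pass through meiosis, and round spermatids are the haploid cells that mature into sperm, while Sertoli cells nurse all of them and Leydig cells make testosterone. The X chromosome is silenced in spermatocytes. By the study's account most of it then stays repressed, apart from a fairly small subset of genes expressed after meiosis. In a whole testis, fewer cells of a type and less RNA in each cell cannot be told apart.

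Expression values are on the log2 scale, 1 value per gene and array, so that a difference of 1 is a doubling. The data hold 7000 genes. By its methods the study kept genes detected in all 12 males, which would leave out a gene silent in the testis of either species. The array's probes were designed from the genome of C57BL/6, which is mostly of domesticus origin. A probe that differs from a musculus transcript can lower the signal in *MxM*, and the part of such probes in any difference was not tested. The 6 arrays correlated over genes at 0.992 or more within *DxD*, at 0.948 to 0.987 within *MxM* and at 0.920 to 0.965 between the crosses. *MxM* males varied more: the median SD of a gene over 3 males was 0.149, against 0.080 in *DxD*, and the SD was larger in *MxM* for 78.8% of genes. *MxM* replicate 3 stood apart, with 131 genes lower by at least 1 than in each of the other 5 males, where the others had 0 to 4 such genes. Results that rest on it are given with and without it.

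Measured expression differed between the 2 crosses in a large share of the genes, mostly by small amounts. Of 7000 genes, 2230 differed between *DxD* and *MxM* (31.9%; limma fitted over the 12 arrays, Benjamini-Hochberg adjusted p under 0.05). The number higher in *DxD* was 983 (14.0%), and 1247 were higher in *MxM* (17.8%). Among these 2230 genes, 1464 differed by less than 1.5-fold. Over all genes the median absolute difference was 0.20, and the median of the signed difference, *DxD* minus *MxM*, was -0.02. The 3 *DxD* values and the 3 *MxM* values did not overlap for 3140 genes (44.9%), which include 2213 of the 2230. Without *MxM* replicate 3, 2039 genes were called, 994 of them higher in *DxD*. The calls with and without that male shared 1823 genes, and all 1823 had the same direction. The share called depended on the test. The methods' t-test, with the same adjustment and threshold, called 468 genes with unequal and 1377 with equal variances.

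**Figure D1:**
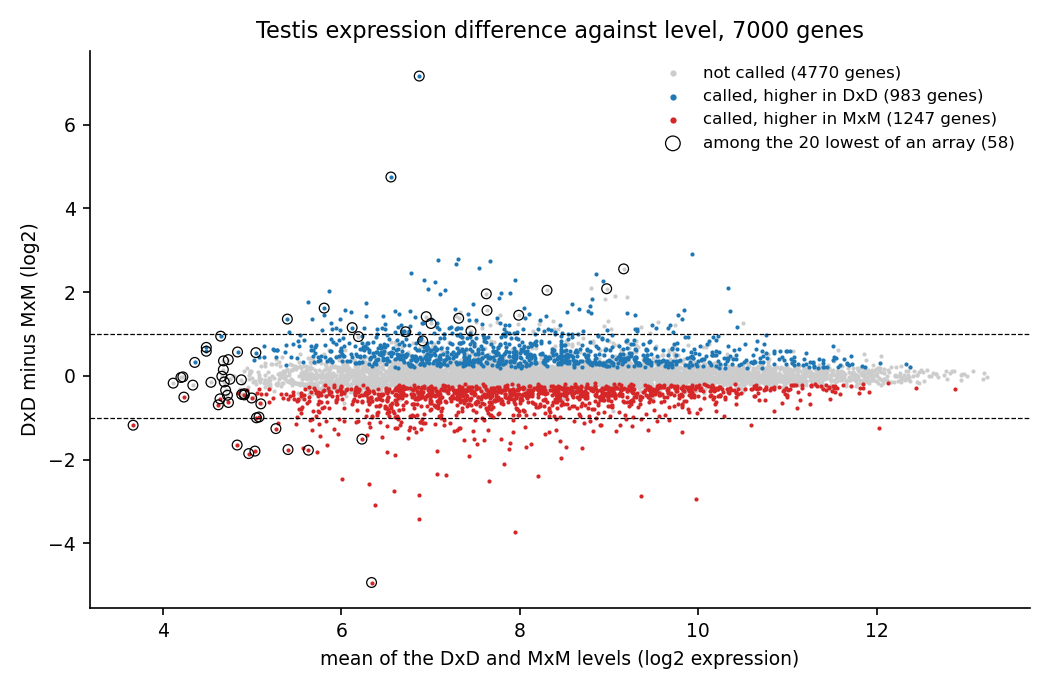
*DxD* minus *MxM* (log2) of each of 7000 genes, plotted against the mean of its *DxD* and *MxM* levels (log2 expression). Blue points are the 983 genes called with the higher level in *DxD* and red points the 1247 with it in *MxM*, grey points were not called, circles mark the 58 genes among the 20 lowest of an array, and dashed lines mark a difference of 1. Most coloured points lie inside the dashed lines, and the few differences above 4 in size belong to circled genes.

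A log2 difference of at least 1 separated the species at 248 called genes (3.54%). These were divided almost evenly: 131 had the higher level in *DxD* (1.87%) and 117 in *MxM* (1.67%). Which cross held the larger number was not settled, since 46.5% were higher in *DxD* when the methods' t-test (unequal variances, Benjamini-Hochberg adjusted) made the calls and 49.2% without *DxD* replicate 1, against 52.8% in all males. Among genes called with a negative difference close to that threshold, the nearest members had differences of -1.0002 and -1.0003, and the nearest non-members -0.99925 and -0.99999. Direction went with size for called differences below 3, and of the 6 genes at 3 or more 2 were higher in *DxD*. For called differences from 0.25 to 0.5, 447 of 1115 genes (40.1%) were higher in *DxD*, with a Wilson 95% interval of 37.3% to 43.0%. From 0.5 to 1 the share was 48.3% of 735 genes, and from 1 to 2 it was 52.6% of 215 genes (45.9% to 59.1%). The intervals treat genes as independent, which genes of 1 testis are not. The excess of small differences toward *MxM* was less when *MxM* replicate 3 was left out: the share higher in *DxD* was then 45.5% from 0.25 to 0.5 and 53.9% from 1 to 2. Over called genes of every size, 55.9% were higher in *MxM*. That share ran from 50.8% with cyclic loess and 50.9% with arrays centred on their median deviation to 58.3% by the methods' t-test (unequal variances). The part of array scaling in the direction by size was not tested.

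**Figure D2:**
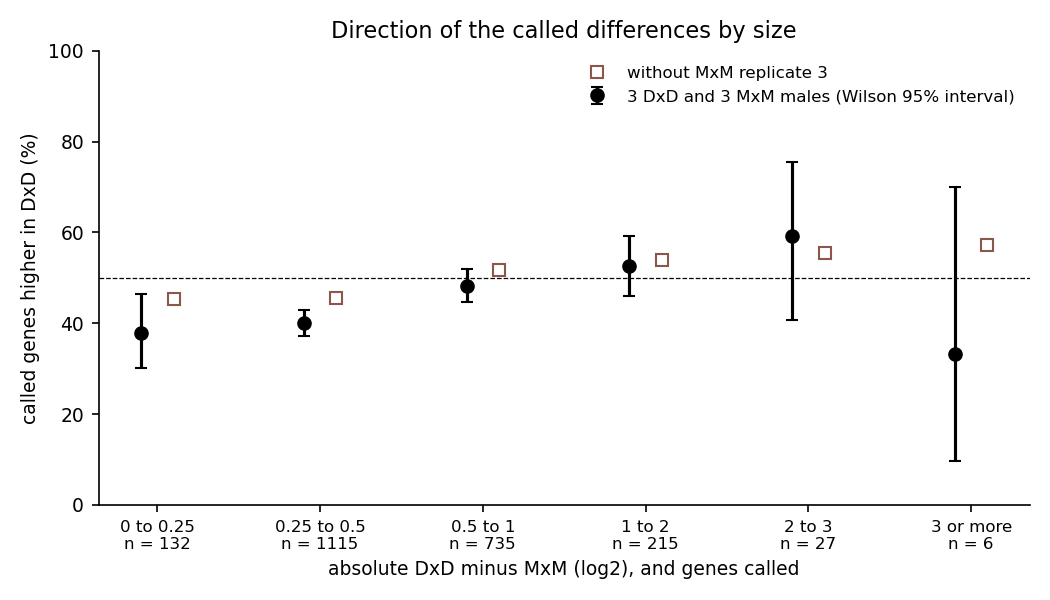
Percent of called genes that were higher in *DxD*, by the absolute size of the difference (log2). Black points with bars are the values of all 6 males with Wilson 95% intervals, open squares the values without *MxM* replicate 3, and the dashed line marks 50%. The share rose from 37.9% below 0.25 to 52.6% from 1 to 2, and the 6 genes at 3 or more leave it between 9.68% and 70.0%.

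Weakly expressed genes differed more often than strongly expressed ones. With genes ranked by their mean level over the 12 males, 36.0% of the lowest quartile of genes were called, 34.4% of the next, 32.8% of the third and 24.2% of the highest. The number with a difference of at least 1 fell from 97 in the lowest quartile to 23 in the highest. In the lowest quartile, 41 of the 97 were higher in *DxD*. In the 3 other quartiles the large differences were more often higher in *DxD*, by 45 to 30, 31 to 22 and 14 to 9 genes. Left without *MxM* replicate 3, the percent called was 34.3, 33.0, 29.6 and 19.6 from the lowest quartile to the highest.

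At the extreme, single genes were near the lowest signal of the array in one species and strongly expressed in the other. The data give these genes only an Ensembl identifier. ENSMUSG00000030062 had levels of 10.37, 10.52 and 10.47 in *DxD*, against 3.08, 3.08 and 3.72 in *MxM*. All 3 *MxM* values were the lowest or the second lowest of their array, so the fitted difference of 7.16 ± 0.15 (SE, limma adjusted p = 7.0e-11) rests on levels with no scale below them. ENSMUSG00000026096, on chromosome 1 and classed as meiotic by the study, had levels of 8.76, 8.98 and 9.04 in *DxD* and of 4.53, 3.72 and 4.29 in *MxM*. Its *MxM* values were also among the 20 lowest of each array, so that its fitted difference has the same limit. It was 4.75 ± 0.18 (SE, limma adjusted p = 8.3e-09). For both genes, every *DxD* male was above every *MxM* male. Whether a mismatch of the probes to musculus transcripts lowered their *MxM* signal was not tested.

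The opposite case was as marked. ENSMUSG00000038170, on chromosome 3, had the third lowest value of the array, 3.87, in each of the 3 *DxD* males and levels of 8.87, 8.78 and 8.77 in *MxM*. Quantile normalization gives every array the same value at a rank, so the 3 equal values show only that the gene was near the floor in *DxD*. The fitted difference of -4.93 (limma adjusted p = 1.4e-12) is thus a distance from that floor, with no spread of its own in *DxD*. The largest difference in this direction that did not involve the 20 lowest values of an array was at ENSMUSG00000019853. It had levels of 6.11, 6.01 and 6.11 in *DxD* and 9.80, 9.74 and 9.90 in *MxM*, a difference of -3.74 ± 0.07 (SE, limma adjusted p = 1.3e-11) or 13.3-fold. Over all genes, 58 were among the 20 lowest of at least 1 of the 6 arrays, and 28 of them were called.

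Levels in the reciprocal hybrids were set beside those of the crosses. A hybrid male carries an allele of each species only at autosomal genes, and no chromosome is stated here for ENSMUSG00000019853 or ENSMUSG00000030062. For ENSMUSG00000019853, the mean level was 8.89 ± 0.03 in *DxM* and 8.84 ± 0.04 in *MxD* (SD, n = 3 each), and the mean of the linear *DxD* and *MxM* levels was 8.92 on the log2 scale. For ENSMUSG00000038170 the hybrid means were 7.80 in *DxM* and 7.61 in *MxD*, beside a linear mean of 7.85. For ENSMUSG00000026096 they were 7.97 and 7.96, beside 7.98. All these hybrid means lay from 0.24 to 0.02 below the mean of the linear levels. The middle of the log2 levels was much lower, at 7.94, 6.34 and 6.56 for the 3 genes in this order. ENSMUSG00000030062 was higher in both hybrids than its linear mean of 9.46, at 9.88 in *DxM* and 10.1 in *MxD*. The hybrids do not have the same parents as the *DxD* and *MxM* males, since they carry no WSB/EiJ or CZECHII/EiJ allele.

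The same was described over the 234 genes called with a difference of at least 1 whose males did not overlap and that were outside the 20 lowest values. These genes were chosen on the *DxD* and *MxM* values, and no test was made on them. An autosome is stated for 70 of them, and the others may include X-linked genes, which have 1 allele in a male. In *DxM*, 216 had a mean level between those of *DxD* and *MxM*, and the number was also 216 in *MxD*. For the 30 genes with a difference of 2 or more, the median hybrid level was 0.04 below the mean of the linear levels in *DxM* and 0.08 below it in *MxD*. Against the middle of the log2 levels it was 0.51 higher in *DxM* and 0.39 higher in *MxD*. Of these 30 genes, 16 in *DxM* and 13 in *MxD* were within 0.3 of the linear mean, and 8 and 10 were within 0.3 of the log2 middle. The 10 of these 30 genes with a stated autosome lay higher, with medians 0.19 above the linear mean in *DxM* and 0.17 above it in *MxD*, so the side of the linear mean was not settled. Against the log2 middle the 10 genes were 0.74 and 0.69 higher. At the 204 genes with a difference between 1 and 2, both references are closer together, and the *DxM* median was 0.01 below the linear mean and 0.12 above the log2 middle. The *MxD* median was 0.05 below the linear mean and 0.07 above the log2 middle, and 126 genes were within 0.3 of the former and 128 within 0.3 of the latter, so in *MxD* neither was closer at this size. With *MxM* replicate 3 left out of the *MxM* mean, the medians for the 30 genes were 0.02 and 0.07 below the linear mean in *DxM* and *MxD*.

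**Figure D3:**
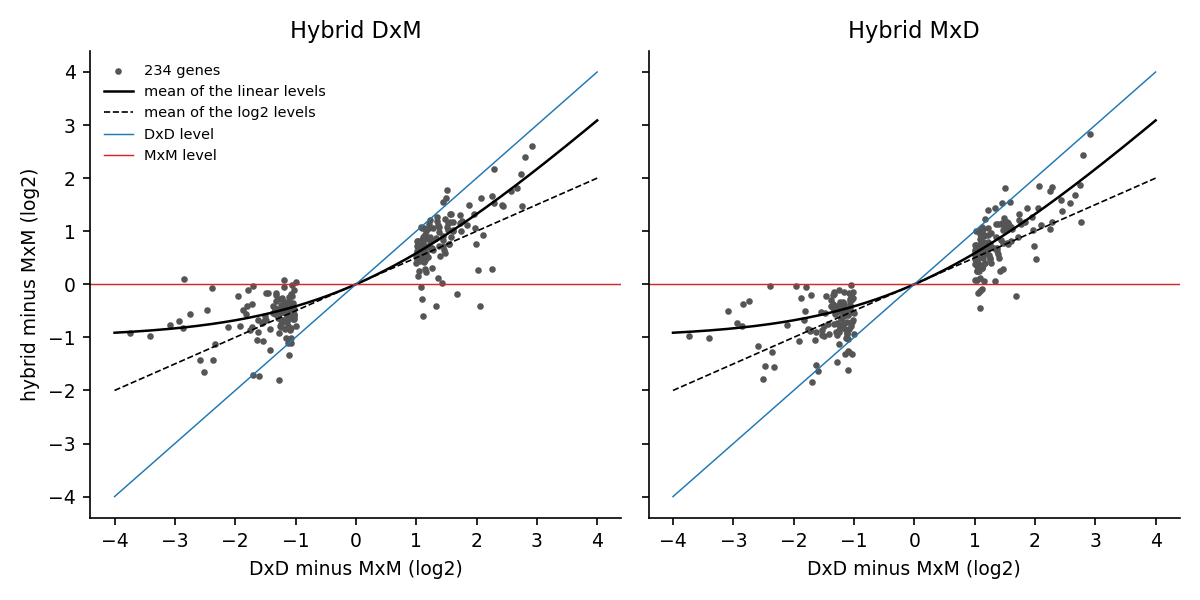
Mean hybrid level minus mean *MxM* level (log2) against *DxD* minus *MxM* (log2) for 234 genes, with *DxM* on the left and *MxD* on the right. The black curve is the mean of the linear levels, the dashed line the mean of the log2 levels, and the blue and red lines are the *DxD* and *MxM* levels. Most points lie between the blue and red lines (216 of 234 in each hybrid), and those far from 0 spread about the black curve. At 2 or more the medians of all 30 genes were 0.04 and 0.08 below it, and those of the 10 with a stated autosome 0.19 and 0.17 above it.

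The study assigned genes to the testis cell type in which they are most induced, and the annotation used here covers 1997 genes of chromosomes 1 to 4 and part of chromosome 5. Of these, 33.5% were called, beside 31.9% of all genes, and 1102 have a cell type. The annotated groups differ in level, since the median level of meiotic and postmeiotic genes was 9.63 and 9.60, that of mitotic genes 7.48 and that of somatic genes 6.65. Genes of germ cells in and after meiosis were thus the more strongly expressed ones, and no marker of a cell type other than Cyp17a1 could be looked up by its symbol.

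Genes of spermatogonia were called about as often as all genes. Of 367 mitotic genes, 110 were called (30.0%, beside 31.9% of all genes). Those higher in *MxM* were 72 (19.6%, beside 17.8%) and those higher in *DxD* 38 (10.4%, beside 14.0%), and the median difference was -0.09 beside -0.02 over all genes. Without *MxM* replicate 3 the counts were 62 and 44, with a median of -0.04. Over the 367 genes, the mean deviation from each gene's median in the 12 males was -0.146, -0.090 and -0.091 in the 3 *DxD* males. It was -0.101, -0.078 and 0.012 in the 3 *MxM* males. The ranges of the crosses overlapped, and replicate 3 was the only 1 of the 6 above 0.

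Genes of spermatocytes were divided evenly in number when all males were used, with 33.3% called, and their large differences were nearly all in 1 direction. Of 324 meiotic genes, 54 were called with the higher level in *DxD* and 54 with it in *MxM*, which is 16.7% each way beside 14.0% and 17.8% of all genes, and the median difference was 0.03. Without *DxD* replicate 2 the numbers were 41 and 34, without *MxM* replicate 3 they were 52 and 40, and with cyclic loess 61 and 49. The methods' t-test (unequal variances) gave 13 and 19, so the even division depended on the setting. Of the meiotic genes called with a difference of at least 1, *DxD* had the higher level at 11 and *MxM* at 1. Over all 1997 annotated genes the counts were 44 and 34. The annotated genes include weakly expressed ones, and over all genes of the third and the highest level quartile the counts were 31 to 22 and 14 to 9. Without *MxM* replicate 3 the meiotic counts of these large differences were 12 and 0. By the methods' t-test (unequal variances) they were 4 and 0. The mean deviation of the meiotic genes was 0.064, 0.062 and 0.051 in *DxD* and 0.004, -0.023 and -0.079 in *MxM*. The males of the crosses did not overlap in this mean, and *MxM* replicate 3 was the lowest. The mean includes the large differences, among them 4.75 at ENSMUSG00000026096, near the floor in *MxM*, and the median difference was 0.03. The lack of overlap is thus not separate from the 11 to 1 count, and a shift of the meiotic genes as a whole was not tested.

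Genes of round spermatids and of somatic cells differed in both directions, at shares near those of all genes (31.9%, with 14.0% higher in *DxD* and 17.8% in *MxM*). Of 269 postmeiotic genes, 81 were called (30.1%), 34 higher in *DxD* (12.6%) and 47 in *MxM* (17.5%), and their median difference of -0.02 was that of all genes. The mean deviations lay from 0.031 to 0.073 in *DxD* and from 0.024 to 0.083 in *MxM*, so that the crosses overlapped. Of 142 somatic genes, 49 were called (34.5%), 19 higher in *DxD* (13.4%) and 30 in *MxM* (21.1%), with a median of -0.06. Without *MxM* replicate 3 the somatic counts were 24 and 27. That male had a mean deviation of 0.101 over the somatic genes, where the other 5 males lay from -0.093 to -0.025. *MxM* replicate 3 thus had more somatic and mitotic signal and less meiotic signal than the other 5 males. Its median deviation over all genes was also high, at 0.075, where the other males of the series lay from -0.010 to 0.012. The part of this array-wide shift in its mitotic and somatic values was not tested, nor was that of cell composition in the species difference.

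**Figure D4:**
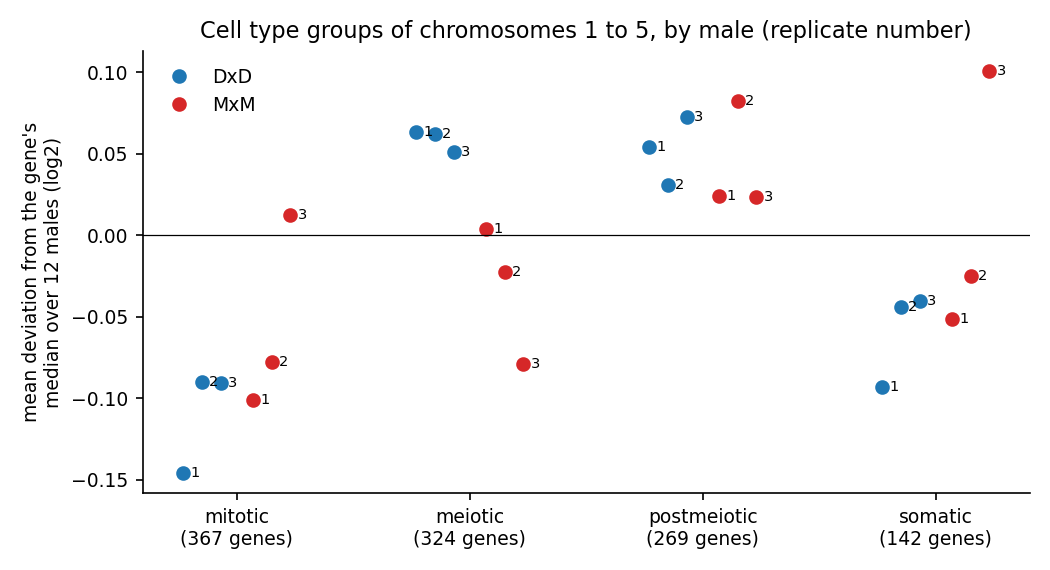
Mean deviation of each male from the gene's median over 12 males (log2), over the annotated mitotic, meiotic, postmeiotic and somatic genes of chromosomes 1 to 5. Blue points are *DxD* and red points *MxM* males, numbered by replicate. The meiotic genes show the 3 *DxD* males (0.051 to 0.064) above the 3 *MxM* males (-0.079 to 0.004), and *MxM* replicate 3 is the highest male in the mitotic (0.012) and somatic (0.101) groups. The meiotic means include the few large differences of that group.

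Differences were found on each of the 5 chromosomes with a stated position. The percent of genes called was 33.3 on chromosome 1, 34.5 on chromosome 2, 36.8 on chromosome 3, 30.6 on chromosome 4 and 31.5 over the given stretch of chromosome 5, all near the 31.9 of all genes and the 33.5 of the annotated genes. On chromosome 3, 83 called genes were higher in *MxM* (22.99%, beside 17.8% of all genes) and 50 in *DxD* (13.9%, beside 14.0%), with a median difference of -0.07. Without *MxM* replicate 3 these counts were 67 and 47, with a median of -0.04. The mean deviation over its genes was -0.077, -0.036 and -0.033 in *DxD* and -0.050, 0.021 and 0.069 in *MxM*, so the crosses overlapped. On chromosome 5, 35 called genes were higher in *DxD* (17.8%) and 27 in *MxM* (13.7%), with a median of 0.02. On chromosome 2, 17 genes with a difference of at least 1 were higher in *DxD* and 8 in *MxM*. The genes of a chromosome were not tested as a set.

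A symbol is given for 45 genes, of which 32 are X-linked and 13 autosomal. The study chose them on the same 12 males, from genes whose level in sterile *MxD* testes differed from that of fertile males. It kept postmeiotic genes that were higher and mitotic genes that were lower in *MxD*. Their direction is thus not independent of the *MxM* and *DxD* values. The 32 X-linked genes, which the study classed as postmeiotic, had a lower mean in *DxD* in 26 cases. Their median difference was -0.20, beside -0.02 over all genes. The 9 that were called were all higher in *MxM* (28.1%, beside 17.8% of all genes), and 12 did not overlap between the crosses (37.5%, beside 44.9% of all genes), 11 of them with the higher values in *MxM*. Over the 32 genes, the mean deviation was -0.146, -0.116 and -0.039 in *DxD* and -0.063, 0.133 and 0.215 in *MxM*. *MxM* replicate 1 lay among the *DxD* males, so the crosses overlapped. Leaving out *MxM* replicate 3 gave 8 calls and leaving out *MxM* replicate 1 gave 16, and none of the 32 was called higher in *DxD* in either case. After Benjamini-Hochberg adjustment, the methods' t-test called 2 with unequal and 3 with equal variances.

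The X-linked gene with the largest difference was 1110059M19Rik. It had levels of 6.06, 6.09 and 6.01 in *DxD* and 6.88, 7.02 and 7.13 in *MxM*, a difference of -0.96 ± 0.08 (SE, limma adjusted p = 6.0e-06). *DxM* males, which carry the same X chromosome as *DxD*, had a mean of 5.86 ± 0.07, and *MxD* males, with the X chromosome of *MxM*, one of 7.30 ± 0.10 (SD, n = 3 each). The 3 males with a LEWES/EiJ X chromosome in each cross were all below the males with that of PWK/PhJ. The study chose this gene for a higher level in *MxD* than in the fertile males, so the place of *MxD* was set by that choice.

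Ctag2, which belongs to a family of cancer/testis antigens, had levels of 9.53, 9.26 and 9.40 in *DxD* and 9.76, 9.89 and 10.07 in *MxM*, a difference of -0.51 ± 0.11 (SE, limma adjusted p = 0.0034). Ribc1, which encodes a protein of the microtubules of cilia and flagella, had levels of 8.49, 8.48 and 8.48 in *DxD* and of 8.78, 8.92 and 9.09 in *MxM*. The *DxD* males were close together, with an SD of 0.009 beside 0.154 in *MxM*, and the difference was -0.44 ± 0.08 (SE, limma adjusted p = 0.0020). Piga, an enzyme subunit of the first step of GPI anchor synthesis, had levels of 7.23, 7.22 and 7.30 in *DxD* and 7.47, 7.67 and 7.85 in *MxM*. For Piga the difference was -0.41 ± 0.10 (SE, limma adjusted p = 0.011). By the methods' t-test with unequal variances none of Ctag2, Ribc1 and Piga was called (adjusted p of 0.084, 0.14 and 0.18). With equal variances that test called Ribc1 only (adjusted p = 0.044).

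Zcchc13, which encodes a CCHC zinc finger protein, was the most strongly expressed of the 9 and the least variable in *MxM*. Its levels were 10.18, 10.22 and 10.24 in *DxD* and 10.46, 10.50 and 10.52 in *MxM*, a difference of -0.28 ± 0.06 (SE, limma adjusted p = 0.0066). Dmrtc1a, of the DMRT-like family, had levels of 8.95, 9.03 and 9.01 in *DxD* and 9.16, 9.36 and 9.31 in *MxM*, also a difference of -0.28 (limma adjusted p = 0.0097). Actrt1, an actin-related protein of the sperm head, had levels of 8.15, 8.19 and 8.30 in *DxD* and 8.39, 8.57 and 8.77 in *MxM*. Its difference of -0.36 ± 0.12 (SE, limma adjusted p = 0.042) was the nearest to the threshold, and it was lost when any male other than *MxM* replicate 1 was left out, with a limma adjusted p of 0.062 to 0.13. The Actrt1 call was also lost with only the 6 *DxD* and *MxM* arrays in the fit (limma adjusted p = 0.054), and 10 of 19 alternatives left it unchanged. Among the uncharacterised genes, 4930412D23Rik differed by -0.54 and 4930468A15Rik by -0.49, with limma adjusted p of 0.0025 and 0.0088. Neither of these nor Dmrtc1a was called by the methods' t-test, with unequal or with equal variances.

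For each of the 9 called X-linked genes the mean level in *DxM* lay below that of *MxM* and the mean in *MxD* above it. The study chose them for a higher level in *MxD* and required a difference between the reciprocal hybrids, so neither part is independent of that choice. Ctag2, for example, had means of 9.38 ± 0.11 in *DxM* and 10.39 ± 0.14 in *MxD*, and Zcchc13 of 10.29 ± 0.09 and 10.84 ± 0.05 (SD, n = 3 each).

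**Figure D5:**
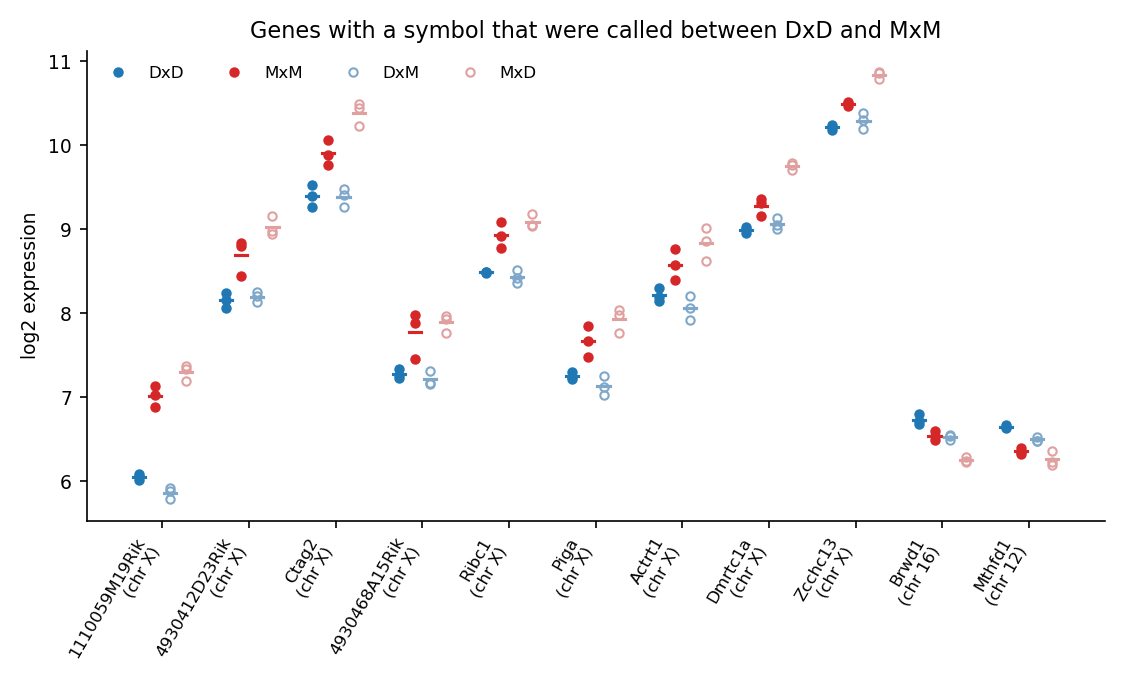
Expression (log2) of the 11 genes with a symbol that were called between *DxD* and *MxM*, in each of the 12 males, with a bar at the mean of each cross. Filled blue and red points are *DxD* and *MxM* males, and open points the *DxM* and *MxD* hybrids. The first 9 genes are X-linked and higher in *MxM* in all males, and the last, Brwd1 and Mthfd1, are autosomal and higher in *DxD*.

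The other 23 X-linked genes did not pass the threshold. The closest was Satl1, a gene of the spermidine acetyltransferase-like family, with a difference of -0.21 and no overlap between the crosses (limma adjusted p = 0.054). 4933436I01Rik had a difference of -0.34 (adjusted p = 0.064 in limma) and Dusp21, a dual specificity phosphatase of the testis, one of -0.29 (adjusted p = 0.13 in limma). Abundant transcripts of spermatids had small differences: -0.25 for Cypt3 and -0.23 for Cypt5, both of a family of cysteine-rich sperm proteins, and -0.16 for Tsga8. The 2 largest differences in the other direction were at 1700013H16Rik, 0.26, and at 4933400A11Rik, 0.25.

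Among the 13 autosomal genes with a symbol, 2 were called, both with higher values in *DxD* and both classed as mitotic. Mthfd1, an enzyme of folate metabolism on chromosome 12, had levels of 6.67, 6.64 and 6.63 in *DxD* and 6.32, 6.40 and 6.35 in *MxM*. The difference was 0.29 ± 0.06 (SE, limma adjusted p = 0.0050). Brwd1, a chromatin protein with bromodomains and WD repeats on chromosome 16, had levels of 6.80, 6.72 and 6.68 in *DxD* and 6.53, 6.50 and 6.60 in *MxM*, a difference of 0.19 ± 0.06 (SE, limma adjusted p = 0.034). That call depended on *MxM* replicates 1 and 2 and on each *DxD* male, since the limma adjusted p was 0.052 to 0.13 when any of these was left out. It was also lost with only the 6 *DxD* and *MxM* arrays in the fit (limma adjusted p = 0.0996) and with a trended and robust prior (limma adjusted p = 0.066). Of 18 alternatives, 7 left the call unchanged.

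The autosomal genes that were not called included regulators of chromatin and of the cell. Dnmt3a, a DNA methyltransferase that sets new methylation marks, had levels of 5.32 to 5.36 in *DxD* and 5.30 to 5.40 in *MxM*, a difference of 0.01 ± 0.06 (SE, limma adjusted p = 0.95). Baz2b, a bromodomain protein, had a difference of 0.12, and Meg3, an imprinted noncoding RNA, one of 0.15. Sirpa, an inhibitory receptor of myeloid cells, had one of 0.10. Of the mitotic genes with higher means in *MxM*, the difference was -0.21 for Ppp1r15b, a phosphatase subunit that acts on eIF2 alpha, -0.12 for the nuclear pore protein Nup155 and -0.11 for the deubiquitinase Usp48.

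Cyp17a1, the enzyme of androgen synthesis that marks Leydig cells, varied more between males of 1 cross than any other gene with a symbol. Its levels were 9.84, 10.61 and 9.97 in *DxD* and 9.69, 9.54 and 10.69 in *MxM*. The highest male was *MxM* replicate 3, the crosses overlapped, and the difference was 0.17 ± 0.27 (SE, limma adjusted p = 0.67). Without *DxD* replicate 2 or without *MxM* replicate 2 the difference was negative, at -0.07 and -0.05. The study classed the gene as postmeiotic, as it did BC048507 (0.15), the water channel Aqp8 (-0.13) and Spinlw1, an epididymal and testicular protease inhibitor (0.06), none of which was called.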

How the data were processed

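The authors summarised the perfect-match and mismatch signals of each Ensembl gene with PLIER, which gives less weight to noisy probes, removed genes not detected in every male, and applied quantile normalization across the arrays. The values they deposited are on the log2 scale. Quantile normalization gives every array the same distribution, so a change in the total amount of expression cannot be seen. Arrays carry no read depth, and 3 per cross limit the precision. All per-sample columns were used (0 were left out).

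From these values, *DxD* minus *MxM* was tested with limma 3.58.1 (R 4.3.3) over 12 arrays, 1 coefficient per cross, two-sided, with Benjamini-Hochberg adjustment over 7000 genes at 5%. The gene-by-gene test of the study, called the methods' t-test here, was run as an alternative with the same adjustment. The study did not use this adjustment, and for this comparison estimated a false discovery rate of 5% with fdrtool. Other alternatives were array weights, a replicate block, other scalings and filters, a threshold of 1% and each male left out. Alternatives for the large differences of meiotic genes, and hybrid levels without *MxM* replicate 3, were added after seeing the data.

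The members and lists were chosen with earlier results of these data known. Genes to name were the largest non-overlapping differences among genes with a symbol, and members of 22 gene lists and 20 symbol families. Only 45 genes could be matched to a symbol here, so 3 of the 545 symbols in the lists (Cyp17a1, Spinlw1 and Dnmt3a) could be used, and all 45 were considered. The 4 genes given by identifier were chosen after their values were seen. Cell types and positions are the study's annotation, used here for 1997 genes, and were not tested for enrichment. Plots were made in Python 3.11.15 with matplotlib 3.10.9.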

Additional observations from a re-analysis of the deposited data

How the results depend on the processing

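The count of 2230 genes moved by over 1.5 times under 3 settings. The methods' t-test called 468 with unequal and 1377 with equal variances after Benjamini-Hochberg adjustment at 5%, and a limma threshold of 1% called 1404. For this comparison the study used unadjusted p under 0.05 and also a false discovery rate of 5% estimated with fdrtool. Unadjusted, 2065 genes with unequal and 2444 with equal variances had p under 0.05 in the methods' t-test. The count of 248 large differences was 129 by the methods' t-test (unequal variances) and 149 with the dimmest 25% of genes removed. The share of called genes higher in *MxM*, 55.9%, was 58.3% by the same test, 53.1% with array weights, 58.0% with all replicate 1 arrays left out, 50.9% with arrays centred on their median deviation and 50.8% with cyclic loess, and from 51.3% (without *MxM* replicate 3) to 56.6% with 1 male left out. The share of large differences higher in *DxD*, 52.8%, was 46.5% and 48.6% with the methods' t-test with unequal and equal variances, 49.4% without all replicate 1 arrays and 59.1% without the dimmest genes, and from 49.2% (without *DxD* replicate 1) to 60.9% (without *MxM* replicate 1) with 1 male left out, so its direction is not settled. The causes were not tested.

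Among cell types, in the order higher in *DxD* then in *MxM*, the methods' t-test, first of unequal and then of equal variances, called 7 and 11, then 20 and 37 mitotic genes, 13 and 19, then 37 and 36 meiotic genes, 12 and 13, then 22 and 32 postmeiotic genes, and 4 and 2, then 10 and 15 somatic genes. At 1% the counts were 21 and 50, 37 and 33, 23 and 28, and 12 and 19. With the dimmest genes removed, 24 and 42 mitotic and 5 and 12 somatic genes were called.

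The gene Dnmt3a and the gene Cyp17a1, neither of them called, changed sign. Dnmt3a was at -0.00176 with array weights and from -0.0145 to 0.0366 with 1 male left out, and Cyp17a1 from -0.0655 to 0.526.

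The replicate numbers are not known to pair the males. Deviations of same-numbered males from their cross means correlated at 0.568, 0.0744 and 0.313 over genes, and *DxD* replicate 2 correlated more with *MxM* replicate 3. Under the replicate block 3109 genes were called, and 3022 when the block set replicate 1 against the others. The replicate block called 15 of the X-linked genes with a symbol higher in *MxM* and 2 higher in *DxD*. Signal near the lowest of the array limits 58 genes. Without them 2208 genes were called.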
